A study of Mus musculus with 4 samples.

Results

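Antioxidant defence was followed through 10 genes: the superoxide dismutases Sod1 and Sod2, the catalase gene Cat, the NRF2 target genes Hmox1, Nqo1, Gclc, Gclm and Txnrd1, the gene of NRF2 itself (Nfe2l2) and that of its inhibitor (Keap1). They were chosen by name out of the 53647 genes in the count tables, for what they are known to do. Earlier results of these data were known when these genes were chosen. Each was matched to its Ensembl identifier, and all 10 passed the filter on low counts and were tested, with 461 to 7173 counts in a library. The question was whether EDA-A2, an isoform of ectodysplasin A that acts through the receptor EDA2R, altered these genes in muscle cells, and whether Sod2 moved apart from the NRF2 targets.

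The cells were wild-type mouse primary myotubes, grown from myoblasts of the limb muscles of pups aged 2 to 3 days and transferred to medium with horse serum to differentiate. One group received recombinant EDA-A2 at 250 ng/mL for 24 h, and the other was the control, with 2 libraries of polyadenylated RNA in each group. All 4 were collected at 72 h of differentiation, and none carried a deletion or transgene. The labels do not say that the replicates were separate cultures or animals, so p-values here measure only the spread between these samples, which may be technical.

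Cells are exposed to superoxide and peroxides from respiration and other oxidases. Superoxide dismutases turn superoxide into hydrogen peroxide, SOD1 mainly in the cytosol and SOD2 in the mitochondrial matrix, and catalase and the peroxidases break hydrogen peroxide down. NRF2 is a transcription factor that KEAP1 marks for degradation until oxidants or electrophiles modify KEAP1, and it then binds antioxidant response elements (AREs) with a small MAF protein. Sod2 is also known as a target of NFκB, the factor that TNF receptor family members such as EDA2R can activate, so it can respond to a signal that does not pass through NRF2.

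None of the 10 genes was past the threshold after EDA-A2. Their log2 fold changes lay between -0.27 for Nqo1 and 0.03 for Sod1, with 8 below 0 and 2 above. Sod2 had a log2 fold change of -0.01, while 13 of 17 tested genes of an NFκB target list were higher, against 2.45% of all genes tested. That list was drawn up with genes already seen to rise in these libraries, so its direction is a description only. All 5 NRF2 targets had values below 0, and of these Hmox1, Nqo1 and Txnrd1 lay lower in both EDA-A2 libraries than in either control library, as did 22.2% of all genes tested. Among the relatives of NRF2, Nfe2l1 and Nfe2l3 rose, while Nfe2l2 had a log2 fold change of 0.02.

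To show where both kinds of signal could be read in the genome, the promoter windows of the protein-coding genes were searched for short motifs, from 250 bases before to 50 bases after the start of the canonical transcript in GRCm39. The ARE core was searched as TGACNNNGC on both strands. It was found in 2713 of 21770 windows (12.5%) and in 3 of the 10 members, Sod1, Gclm and Txnrd1. The core was also in 5 of the 17 tested genes of the NFκB target list and in 4 of 24 other NRF2 targets. The matches of the members are shown on the strand that carries the motif, the minus strand in each case, and capitals mark the core.

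Txnrd1, chr10:82694938-82694966, minus strand: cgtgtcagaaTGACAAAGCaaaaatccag
Gclm, chr3:122039062-122039090, minus strand: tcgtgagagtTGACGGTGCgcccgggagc
Sod1, chr16:90017303-90017331, minus strand: ggattgtcacTGACTTTGCacagcgcgcc

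None of these 3 matches also holds the AP-1 motif, which can overlap the ARE core. The matches were centred before the start of the canonical transcript, by 61 bases for Txnrd1, 50 for Gclm and 91 for Sod1. The NFκB consensus motif was in 1952 of the windows (8.97%). Of the members only Cat had a match, and the window of Sod2 had none. Of the 17 tested genes of the NFκB target list, 7 had a match. Nfkb2, Mmp9 and Tnip1, which were called higher, had none in this window. For comparison, the matches in Nfkbia and Nfkbie, which encode inhibitors of NFκB, and in Nos2, the gene of inducible nitric oxide synthase, are shown beside that of Cat, with the match in capitals.

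Cat, chr2:103315595-103315624, plus strand: ggcgagaagtGGGGGCTCCCggaggtggac
Nfkbia, chr12:55539442-55539471, plus strand: gtcaggcgcgGGGAATTTCCaagccagtca
Nfkbie, chr17:45866510-45866539, plus strand: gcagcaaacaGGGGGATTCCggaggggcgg
Nos2, chr11:78811557-78811586, plus strand: cacccaactgGGGACTCTCCctttgggaac

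The match of Cat reads on both strands at the same position and is shown on one of them. A match describes the letters in this window only, and known elements farther away, such as the enhancer inside Sod2 or those upstream of Hmox1, lie outside it. Over all 13065 tested genes with a window, 2.65% were higher and 2.40% lower after EDA-A2. Among the 1796 with the ARE core these shares were 3.34% and 2.51%, and the median log2 fold change was -0.00. The 1307 genes with the NFκB motif had shares of 4.97% and 2.30%.

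Depth was nearly equal, with 29444155 to 29746863 read pairs counted on genes per library. To normalize, each library was brought to the mean library size after TMM factors, and log2 fold changes are EDA-A2 against control. Of 15173 genes tested, 371 were higher and 323 lower in the edgeR quasi-likelihood F test after Benjamini-Hochberg adjustment at a threshold of 0.05, and the median standard error (SE) was 0.10. Of the marker sums, that of 7 myotube genes was the largest, at 396722 to 554477 normalized counts. The smallest were 77.3 to 126 for 5 macrophage markers and 29.5 to 36.3 for 4 endothelial markers. Markers of fibroblasts, myoblasts and dividing cells, given below, were well above these, with Mki67 of dividing cells at 7813 to 9059. The myotube sum was lower with EDA-A2 (396722 and 404120, against 554477 and 528863). Most of it was Myh3 and Acta1, which were called lower. The other 5 myotube markers were not called, with log2 fold changes from -0.36 for Ckm to -0.02 for Des and -0.01 for Mymk. The macrophage sum was higher with EDA-A2 (126 and 103, against 77.3 and 85.7), with 2 of its 5 genes tested and 0 called, and the endothelial sums overlapped. The sum of 5 fibroblast markers, 2 of them at 0 in every library, was 9599 in control replicate 1 against 5112 to 6206 in the other libraries. Most of it was Col1a1, at 9277 in control replicate 1. Pdgfra and Dcn went the other way and were lowest in that library, at 247 and 75.2. Sums over 3 myoblast markers (4201 to 4941) and 4 genes of dividing cells (19378 to 23059) overlapped between the groups. The part of these differences in the values below was not tested, and in bulk RNA fewer cells of a type and less RNA per cell cannot be told apart.

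Sod1 (ENSMUSG00000022982, chromosome 16 from 90017408 to 90027657 of GRCm39) had normalized counts of 5332 and 5757 in control and 5642 and 5676 with EDA-A2. Both treated libraries lay between the control libraries. Sod1 had a log2 fold change of 0.03 (SE 0.07, 95% interval -0.12 to 0.17, Benjamini-Hochberg adjusted p = 0.902 by the edgeR quasi-likelihood F test). Sod1 overlaps the gene Scaf4 on the opposite strand over 4217 exon bases of the annotation. The strand option of the counting is not given in the sources used here, so counts in the overlap are uncertain, but Scaf4 itself had a log2 fold change of -0.00.

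Sod2 (ENSMUSG00000006818, chromosome 17 from 13224095 to 13259591) had normalized counts of 3252 and 3467 in control. With EDA-A2 they were 3201 and 3451, so the groups overlapped and each pair spanned nearly the same range. Sod2 had a log2 fold change of -0.01 (SE 0.07, adjusted p = 0.959 from the same edgeR test). Its 95% interval, -0.17 to 0.14, corresponds to a level of 0.891 to 1.10 times that of control. The sign of this value was not stable: it was 0.0399 with total counts as the scaling, 0.0399 when EDA-A2 replicate 1 was left out and 0.0336 without control replicate 2.

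Cat (ENSMUSG00000027187, chromosome 2 from 103284194 to 103316185), whose enzyme works mainly in peroxisomes, had normalized counts of 1856 and 1924 in control and 1776 and 1763 with EDA-A2. Both treated libraries were below both controls, by a small margin. The log2 fold change of Cat was -0.09 (SE 0.07, 95% interval -0.25 to 0.06), with an adjusted p of 0.610 by the edgeR quasi-likelihood F test.

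**Figure D1:**
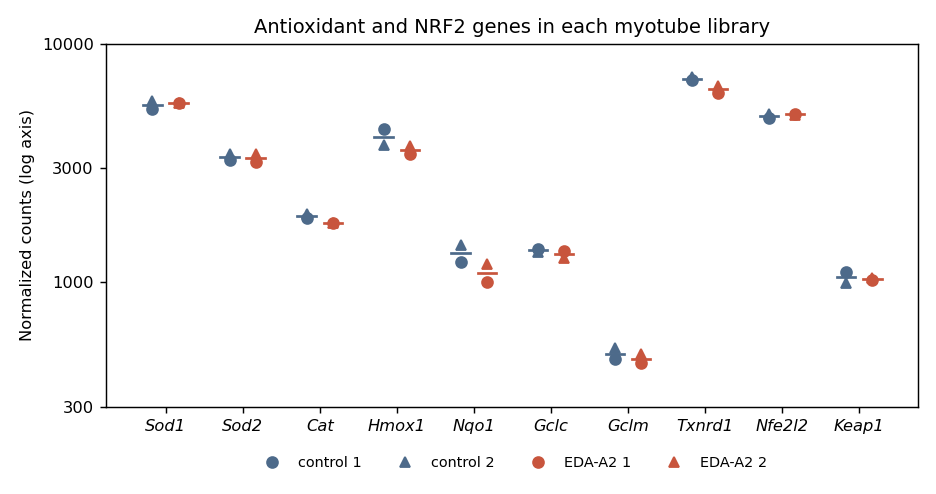
Normalized counts (log axis) of the 10 members in the 4 libraries, control in blue and EDA-A2 in red, circles for replicate 1, triangles for replicate 2 and a line for the mean of each pair. For Cat, Hmox1, Nqo1 and Txnrd1 both EDA-A2 libraries lie below both controls, and for the other 6 genes the groups overlap.

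The NRF2 targets were next. Hmox1 (ENSMUSG00000005413, chromosome 8 from 75820241 to 75827217) encodes heme oxygenase 1, which opens the heme ring and releases iron. It had normalized counts of 4397 and 3758 in control and 3436 and 3726 with EDA-A2. The groups did not overlap, but control replicate 2 lay just above EDA-A2 replicate 2, and control replicate 1 stood well above the others. The log2 fold change of Hmox1 was -0.19 (SE 0.08, 95% interval -0.36 to -0.01, unadjusted p = 0.0352, Benjamini-Hochberg adjusted p = 0.266 by the edgeR quasi-likelihood F test). It was -0.07 without control replicate 1, the library with the high Col1a1 count, and -0.30 without control replicate 2.

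Nqo1 (ENSMUSG00000003849, chromosome 8 from 108113835 to 108129934) encodes a quinone reductase and is a standard readout of NRF2. Its normalized counts were 1214 and 1433 in control and 999.8 and 1188 with EDA-A2. Both treated libraries lay below both controls, although EDA-A2 replicate 2 came close to control replicate 1. With a log2 fold change of -0.27 (SE 0.10, 95% interval -0.49 to -0.06), Nqo1 had the value farthest from 0 among the members. Its unadjusted p was 0.0152 and its adjusted p 0.163 by the same edgeR test. Replicate 2 was above replicate 1 in both groups, by 0.24 in control and 0.25 with EDA-A2 on the log2 scale. With each library left out in turn, the log2 fold change of Nqo1 was -0.39 (without control replicate 1), -0.15 (without control replicate 2), -0.16 (without EDA-A2 replicate 1) and -0.41 (without EDA-A2 replicate 2).

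Txnrd1 (ENSMUSG00000020250, chromosome 10 from 82669785 to 82733546), the gene of the cytosolic thioredoxin reductase, had normalized counts of 7036 and 7233 in control and 6236 and 6671 with EDA-A2. The groups did not overlap. The log2 fold change was -0.14 (SE 0.07, 95% interval -0.29 to -0.00), with an unadjusted p of 0.0494 and an adjusted p of 0.318 by the edgeR quasi-likelihood F test.

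Gclc and Gclm encode the catalytic and the modifier subunit of glutamate-cysteine ligase, the enzyme of the first step of glutathione synthesis. Gclc (ENSMUSG00000032350, chromosome 9 from 77661797 to 77701770) had normalized counts of 1384 and 1344 in control and 1355 and 1258 with EDA-A2. Gclm (ENSMUSG00000028124, chromosome 3 from 122039126 to 122065061) had 475 and 527, against 456 and 497. For both subunits the groups overlapped. Their log2 fold changes were -0.06 for Gclc (SE 0.08, 95% interval -0.23 to 0.10) and -0.07 for Gclm (SE 0.11, 95% interval -0.30 to 0.15), with adjusted p-values of 0.796 and 0.834 by the same edgeR test. Gclm had the fewest counts of the members and the widest interval. It shares 492 exon bases with a pseudogene on its own strand, Gm6061, and 869 with Gm17494 on the opposite strand, so its counts are less certain than those of Gclc.

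Control of NRF2 was read from Nfe2l2 and Keap1. Nfe2l2 (ENSMUSG00000015839, chromosome 2 from 75504739 to 75534985) had normalized counts of 4906 and 5103 in control and 5084 and 5043 with EDA-A2, the latter lying between the controls. Its log2 fold change was 0.02 (SE 0.07, 95% interval -0.12 to 0.16, Benjamini-Hochberg adjusted p = 0.950 by the edgeR quasi-likelihood F test). Keap1 (ENSMUSG00000003308, chromosome 9 from 21141026 to 21150679) had 1106 and 996.3 in control and 1021 and 1044 with EDA-A2, again between the controls. For Keap1 the log2 fold change was -0.03 (SE 0.08, 95% interval -0.21 to 0.15, adjusted p = 0.936 from the same edgeR test). Both genes overlap a noncoding gene on the opposite strand, over 278 exon bases for Nfe2l2 and 620 for Keap1. NRF2 is controlled mainly through the stability of its protein, which RNA does not show.

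Counted over the members, 0 of 10 were past the threshold in the edgeR quasi-likelihood F test after Benjamini-Hochberg adjustment, against 4.57% of all genes tested (2.45% higher and 2.13% lower). DESeq2 also called 0 of the 10, against 4.09% of the genes with an adjusted p in its fit. At an unadjusted p under 0.05 there were 3 by edgeR, Hmox1, Nqo1 and Txnrd1, all lower, against 8.03% of all genes tested that were lower at that level, and 2 by DESeq2. That number fell to 0 with total counts as the scaling or without EDA-A2 replicate 1, and to 1 without control replicate 1, without control replicate 2 or with every gene of at least 1 count kept. Groups that did not overlap were found for 4 members with EDA-A2 lower and for 0 with EDA-A2 higher, where 22.2% and 22.8% of all genes tested were of these kinds. The median log2 fold change was -0.07 over the members and -0.00 over all genes tested. The 95% intervals of the members reached from 0.713 (Nqo1) to 1.13 (Sod1) times the control level, and changes beyond these bounds lay outside every interval. Each single interval was narrower, such as 0.891 to 1.10 for Sod2. Changes inside a member's own interval were not resolved with 2 libraries per group.

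**Figure D2:**
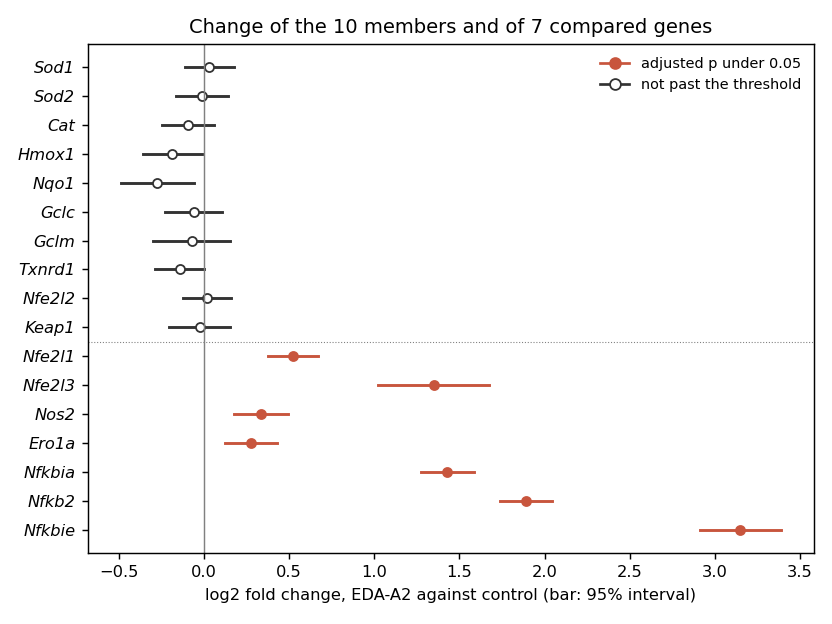
Log2 fold change (EDA-A2 against control) with its 95% interval for the 10 members, above the dotted line, and for 7 compared genes, with filled red points for genes past an adjusted p of 0.05. The members lie between -0.27 and 0.03, and the compared genes between 0.27 for Ero1a and 3.15 for Nfkbie.

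Sod2 was then set against the NRF2 targets within each library. The log2 ratio of Sod2 to the geometric mean of Hmox1, Nqo1, Gclc, Gclm and Txnrd1 was 0.78 and 0.84 in control and 0.93 and 0.95 with EDA-A2. The treated libraries were both higher, and the mean difference was 0.13 on the log2 scale. The ratio is given as a description with no test, and the smallest p of an exact permutation test with 2 libraries against 2 is 0.333. By target, the difference was 0.26 for Sod2 over Nqo1, 0.17 over Hmox1, 0.13 over Txnrd1, 0.06 over Gclm and 0.05 over Gclc. For Hmox1 the ratio was -0.44 in control replicate 1 and -0.12, -0.10 and -0.11 in the other 3 libraries, so that difference was between control replicate 1 and the rest. Since Sod2 itself had a log2 fold change of -0.01, the ratio followed the targets' values.

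Sod2 was also set against other known NFκB targets, 17 of 18 listed genes being tested. Of these, 13 were higher after EDA-A2 and 0 lower, against 2.45% and 2.13% of all genes tested. All 17 had a log2 fold change above 0, and the median was 1.10. Nfkbie rose from 137.0 and 163.4 normalized counts in control to 1283 and 1388, a log2 fold change of 3.15. Nfkb2, which encodes a subunit of NFκB, rose from 1008 and 1005 to 3660 and 3808 (1.89), and Nfkbia from 1371 and 1271 to 3550 and 3558 (1.43). The log2 fold changes of Mmp9, a secreted metalloproteinase, and Tnip1, an inhibitor of NFκB signaling, were 1.97 and 1.10. The lower 95% bound of 13 of the 17 genes was above the upper bound of Sod2 (0.14). The list was drawn up with genes already seen to rise in these libraries, so this comparison is a description only. Without control replicate 1 or 2 none of the 17 was called, and their median was then 1.119 in each case. Without EDA-A2 replicate 1 or 2 the numbers called were 12 and 13, and the cause of this difference was not tested.

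Levels were compared between the members per kilobase of the canonical transcript, in control libraries. Hmox1 (2586 normalized counts per kilobase) and Txnrd1 (2146) were highest, followed by Nfe2l2 (1393), Sod1 (1043), Cat (723), Sod2 (561), Nqo1 (495), Gclc (396), Keap1 (328) and Gclm (78.9). Between neighbours in this order the 2 control libraries of one gene did not overlap those of the next, the closest being Sod2 (543 to 579) and Nqo1 (454 to 536). With EDA-A2 the order was the same, from 2271 for Hmox1 to 75.1 for Gclm, but Nqo1 (374 to 445) and Gclc (365 to 393) overlapped. The annotated length decides the place of Sod2: with its shortest consensus coding transcript (1280 bases in place of 5983) it stood at 2624, level with Hmox1. The only length given for Sod1, 5315 bases, covers its overlap with Scaf4, so the place of Sod1 in this order is uncertain as well. The modifier subunit gene Gclm was thus several times below Gclc per kilobase, a gap wider than the spread between libraries. The size of this gap depends on the annotated lengths (6349 bases for Gclm and 3446 for Gclc) and on the overlaps of Gclm. Not divided by length, the mean normalized counts in control were 501 for Gclm and 1364 for Gclc.

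The wider antioxidant system was read from lists of genes that overlap in part with each other. No gene of the superoxide and peroxide removal list (12 tested, median log2 fold change -0.03), the glutathione list (26 tested, -0.01), the thioredoxin and repair list (15 tested, 0.04) or the list of other NRF2 targets (24 tested, -0.03) was past the threshold in the edgeR quasi-likelihood F test. The same test called 0 genes of the mitochondrial antioxidant list (9 tested, -0.11), the NADPH supply list (15 tested, -0.06), the heme and iron list (8 tested, -0.11) and the metal cofactor list (8 tested, 0.01). At an unadjusted p under 0.05 these 8 lists held 0, 3, 3, 3, 0, 1, 2 and 1 genes in that order. Of all genes tested, 15.6% were at that level. Values below 0 were found for 6, 14, 7, 16, 7, 10, 7 and 3 genes of these lists in the same order, and for 50.5% of all genes tested. The heme and iron list shares Fth1, Ftl1 and Blvrb with the list of other NRF2 targets.

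Among the most abundant genes of these lists, the ferritin heavy chain gene Fth1, which encodes an iron store and is itself an NRF2 target, had normalized counts of 30341 and 33441 in control and 27236 and 27476 with EDA-A2. The groups of Fth1 did not overlap, and its log2 fold change was -0.22 (SE 0.07, Benjamini-Hochberg adjusted p = 0.108 by the edgeR quasi-likelihood F test). The light chain gene Ftl1 had a log2 fold change of -0.12, and its groups overlapped. Fth1, Ftl1, Prdx1, Gpx4 and Txn1 have processed pseudogenes in the mouse genome, so pairs that did not map uniquely were left out of their counts. Of the peroxidases, Prdx1 had 8171 and 9371 normalized counts in control and 8666 and 9036 with EDA-A2, and its log2 fold change was 0.01. Gpx4, which reduces lipid peroxides, had 8952 and 8498 against 8174 and 8459, a log2 fold change of -0.07. The mitochondrial genes Idh2, a source of NADPH, and Prdx5, a peroxiredoxin, had values of -0.11 and -0.13, both with adjusted p-values above the threshold.

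Thioredoxin (Txn1) and its inhibitor Txnip had log2 fold changes of -0.05 each. Txnip varied more between the control libraries (8251 and 11768 normalized counts) than between the groups. Glrx3, a monothiol glutaredoxin, had 0.06, and Slc3a2, the heavy chain of the cystine transporter, -0.08. The folate enzymes Aldh1l2 and Mthfd2, which take part in NADPH production in mitochondria, had 0.01 and -0.14. The metallothionein genes Mt1 and Mt2 had 0.02 and 0.16, with groups that overlapped. None of these 8 genes was past the threshold.

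**Figure D3:**
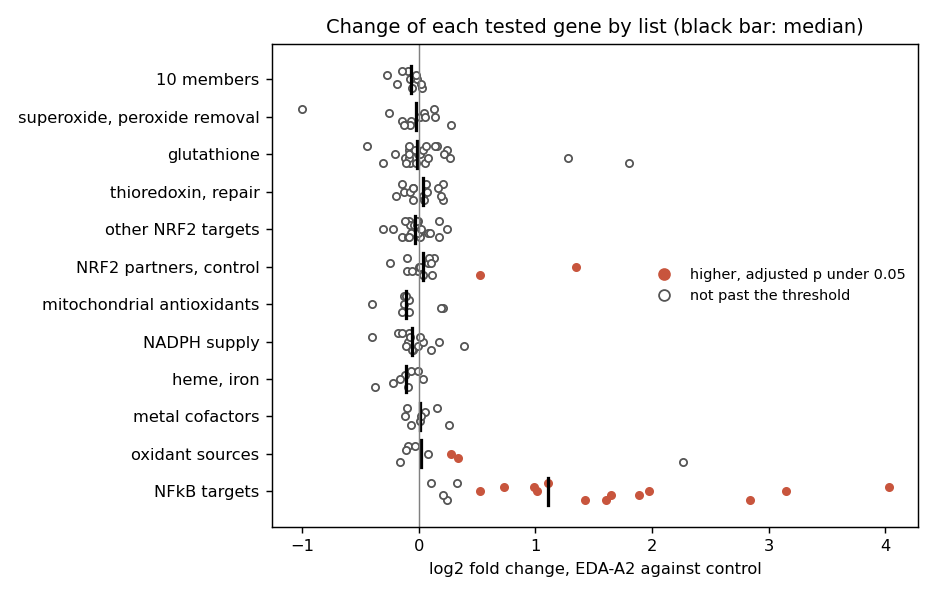
Log2 fold change (EDA-A2 against control) of each tested gene in the 10 members and the 11 lists, 1 point per gene, with a black bar at the median of each list and red points for genes called higher. The medians of the members and of the antioxidant lists lie between -0.11 and 0.04, and the NFκB targets have a median of 1.10.

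In the list of NRF2 partners and control genes, 2 of 15 tested genes were higher and 0 lower, with a median of 0.03. Of all genes tested, 2.45% were higher and 2.13% lower. Both called genes of the list belong to the NRF2 family. Nfe2l3 encodes NRF3, a relative of NRF2 that is held at the endoplasmic reticulum, and its normalized counts were 97.9 and 103.9 in control and 261.7 and 252.6 with EDA-A2. It rose by a log2 fold change of 1.35 (SE 0.15, 95% interval 1.02 to 1.67, Benjamini-Hochberg adjusted p = 8.28e-05 by the edgeR quasi-likelihood F test). Nfe2l3 overlaps Hnrnpa2b1 on the opposite strand over 3166 exon bases, and Hnrnpa2b1, with a mean of 15940 normalized counts, had a log2 fold change of 0.01.

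Nfe2l1 encodes NRF1, the family member known for inducing proteasome genes. Its normalized counts were 23694 and 23201 in control and 32864 and 34446 with EDA-A2. The log2 fold change of Nfe2l1 was 0.52 (SE 0.07, 95% interval 0.38 to 0.67, Benjamini-Hochberg adjusted p = 0.000302 by the edgeR quasi-likelihood F test), and its interval lies above that of Nfe2l2. Both Nfe2l1 and Nfe2l3 were called under every scaling and filter tried. Without control replicate 1 or 2, when 0 of all genes were called, the log2 fold changes were 0.54 and 0.51 for Nfe2l1 and 1.31 and 1.39 for Nfe2l3.

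**Figure D4:**
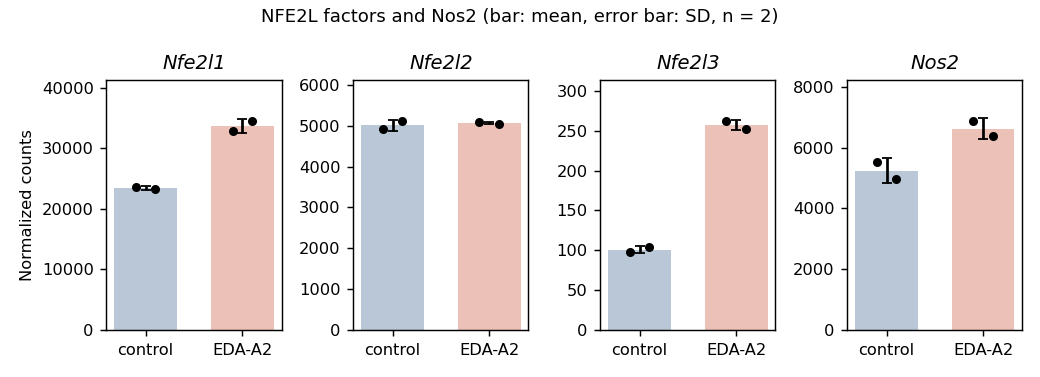
Normalized counts of Nfe2l1, Nfe2l2, Nfe2l3 and Nos2, each on its own linear axis from 0, with bars for the mean, error bars for the SD (n = 2 libraries) and points for the libraries. The EDA-A2 libraries lie above the controls for Nfe2l1, Nfe2l3 and Nos2, and between the controls for Nfe2l2.

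Genes that make oxidants were the last list, with 8 of 15 tested. Of these 2 were higher and 0 lower, against 2.45% and 2.13% of all genes tested. Nos2, which makes nitric oxide, rose from 5538 and 4950 normalized counts in control to 6861 and 6373, a log2 fold change of 0.34 (SE 0.07, Benjamini-Hochberg adjusted p = 0.0158 by the edgeR quasi-likelihood F test). Ero1a, an oxidase of the endoplasmic reticulum that forms hydrogen peroxide as it makes disulfide bonds, rose from 77982 and 75372 to 89754 and 95577, a log2 fold change of 0.27 (SE 0.07, adjusted p = 0.0421 from the same edgeR test). In this list the NFκB motif was in the windows of 4 of the 8 tested genes, Nos2, Ero1a, Maoa and Ero1b. Of all 13065 tested genes with a window, 1307 had it. Maoa and Ero1b had log2 fold changes of -0.11 and -0.04 and were not called. Under the filters tried, the calls of Nos2 and Ero1a were less firm than those of the NFE2L genes. With every gene of at least 1 count kept, neither was called (adjusted p of 0.223 for Nos2 and 0.155 for Ero1a by edgeR), and under a filter of 10 counts in each library Ero1a had an adjusted p of 0.0520. Nos2 was not called without control replicate 1 (0.42), control replicate 2 (0.26) or EDA-A2 replicate 1 (0.28), where the log2 fold change is given in parentheses. Ero1a was not called when any 1 of the 4 libraries was left out. Its log2 fold change was then 0.30 and 0.25 without control replicates 1 and 2, and 0.32 and 0.23 without EDA-A2 replicates 1 and 2. Without control replicate 1 or 2 the NFE2L genes were not called either, so those fits do not rank these calls.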

How the data were processed

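RNA sequencing of 4 mouse myotube libraries was analysed. Per the paper's methods and the submitters' processing notes, the authors checked reads with FastQC 0.11.9 and MultiQC 1.12, trimmed them with Trim Galore 0.6.5, mapped them to GRCm39 with STAR 2.7.3a and counted them per gene with HTSeq 0.11.1. The deposited values are raw counts of read pairs per Ensembl gene, with no normalization or pooling. The annotation release and the strand option are not given in the sources used here. HTSeq's summary lines were left out: 6.68% to 7.40% of pairs fell outside genes, 0.946% to 0.986% were ambiguous and 4.56% to 4.76% did not map uniquely. A count of 0 allows up to 3 counts, here 0.101 to 0.102 CPM, which covers counting error only.

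The GENCODE annotation used here matched 52610 of 53647 genes. Counts were tested in R 4.3.3 with edgeR 4.0.16 (TMM, filterByExpr at 10 counts and 15 in total, quasi-likelihood F test, condition as the only term, Benjamini-Hochberg adjustment over all 15173 genes, threshold 0.05). SE was derived from the fold and F, and the 95% interval uses the fit's degrees of freedom. Scaling was also done by total counts, upper quartile factors or DESeq2 size factors, and filters of 1 count in all or 10 in each library, the Wald test of DESeq2 1.42.0, a replicate block and leaving out each library were tried. Steps were tested on simulated data. The text names all 10 members and, from each of 11 lists, up to 5 called genes by smallest p or, with none called, the 2 with the highest mean level, while marker, overlapping, untested and motif-bearing genes are named beside them. The members and lists were chosen with earlier results of these data known, and the motif search and the second transcript length after seeing the data.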

Additional observations from a re-analysis of the deposited data

How the results depend on the processing

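No member was called under any scaling, filter or test without a replicate block, and the 5 NRF2 targets were all below 0 in every alternative except without control replicate 2, where Gclm was 0.0056 (without control replicate 1 it was -0.14). Members below 0 numbered 6 to 9 of 10 over the alternatives. With total counts Sod2 was 0.0399 and Keap1 0.0301, both of the opposite sign. With each library left out in turn, Sod2 ranged from -0.071 to 0.0399 (positive without control replicate 2 or EDA-A2 replicate 1), Sod1 from -0.023 to 0.087, Nfe2l2 from -0.0096 to 0.046 and Keap1 from -0.098 to 0.053, the last 3 changing sign without control replicate 1. The log2 difference of Sod2 over the 5 targets was 0.10 to 0.16. Of all genes, 194 were lower with total counts (485 higher), and 64 were higher and 22 lower with every gene of at least 1 count kept, over 25545 genes tested. Leaving out each library gave 0 to 238 higher and 0 to 170 lower, both 0 without either control replicate, where the lone control was assumed to vary like the other group and 2179 and 2448 genes had an unadjusted p under 0.05 by edgeR. The cause of the other changes was not tested.

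The labels do not say whether replicate numbers pair the samples. Deviations of same-numbered libraries correlated at 0.06, and 2 pairs are too few to settle it. With a replicate block 537 genes were higher and 529 lower, and 1 member was called lower, Nqo1 (-0.27, adjusted p = 0.0242 by edgeR).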
